A study of Mus musculus with 6 samples.

Results

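The NR4A orphan nuclear receptors are 3 genes, Nr4a1, Nr4a2 and Nr4a3, and all 3 were present by name among the 44200 gene models of the count table. They were picked by name with their difference between old and young hearts already known, so that difference is described here and carries no p-value of its own. Hearts of male C57BL/6 mice on normal chow were compared at 2 months (young, n = 3 animals) and 22 months (old, n = 3 animals). All 6 are whole-tissue libraries of total RNA, so fewer cells of a type and less RNA per cell cannot be told apart. Of the 14413 genes with enough counts to be tested, the 3 members were included.

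NR4A proteins are transcription factors of the nuclear receptor superfamily that work without a known physiological ligand. Their activity is set largely by how much of each is made. Their genes are immediate early genes, switched on within a short time by cAMP, calcium, growth factors, mechanical load or inflammatory signals through CREB, MEF2 and SRF. Nr4a1 encodes NUR77 and Nr4a2 encodes NURR1, and both can act alone, in pairs with each other or with retinoid X receptors. Nr4a3 encodes NOR1. In heart and vessels they are studied in stress responses, muscle fuel use and inflammation.

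The libraries held 13673856 to 15583364 counted reads. A gene was called changed when the adjusted p of edgeR's quasi-likelihood test over all tested genes (Benjamini-Hochberg) was under 0.05. All 8 cardiomyocyte markers were tested, and their summed level was 52685 to 59499 CPM (read counts scaled to library size) in young and 44730 to 50338 CPM in old hearts. Of the 8, Myl2 was called higher and Myh6, Actc1 and Pln lower (50% called). Myh6, the most abundant, went from 22616 ± 1821 to 13464 ± 1616 CPM and Myl2 from 7800 ± 660 to 11666 ± 1589 CPM (SD, n = 3 each). The call of Actc1 held with each library left out, while those of Myh6 (without young 1, 2 or 3) and of Myl2 and Pln (without young 1, 2 or 3, old 2 or old 3) ended. Log2 CPM correlated across genes with r between 0.985 and 0.988 among young and between 0.958 and 0.978 among old libraries, where genes are not independent replicates. The rule called 15.1% of tested genes, 8.72% higher and 6.36% lower in old hearts. Without old 1, the numbers of called genes were 2961 higher and 2609 lower in place of 1257 and 917.

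Nr4a1 was lower in old hearts, Nr4a3 was higher, and Nr4a2 lay at the same low level at both ages within its error. Of the 3 members, 1 was called higher and 1 lower, beside the 15.1% of all tested genes that were called. The age groups did not overlap for 2 of the 3, against 37.3% of all tested genes (18.8% with old above young and 18.4% with old below). Since the members were chosen on this contrast, these counts are a description.

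Nr4a1 (ENSMUSG00000023034; GRCm38 chromosome 15, 101254269 to 101274795, plus strand) was the most abundant member. It stood at 28.2, 49.3 and 34.6 CPM in young 1, 2 and 3, and at 12.7, 13 and 10.2 CPM in old 1, 2 and 3. Each young library lay above each old one. The mean level was 37.4 ± 10.8 CPM in young and 12 ± 1.5 CPM in old hearts (SD, n = 3 each), a log2 fold change of -1.64 ± 0.21 (SE), or 3.12-fold lower. The young hearts differed among themselves by more than counting error: the 410, 727 and 537 reads behind them have exact Poisson 95% intervals of 371 to 452, 675 to 782 and 493 to 584. The SD of log2 CPM among young hearts was 0.41 for Nr4a1, larger than in 98.8% of the 2646 genes of like level, whose median SD was 0.11. Among old hearts it was 0.19, against a median of 0.23. The call held with each library left out in turn, with log2 fold changes from -1.81 to -1.39.

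Nr4a3 (ENSMUSG00000028341; chromosome 4, 48045153 to 48086447, plus strand) went the other way. It stood at 4.95, 3.87 and 2.64 CPM in young 1, 2 and 3, and at 6.74, 7.66 and 8.02 CPM in old 1, 2 and 3. Again the ages did not overlap, although the counting intervals of young 1 (3.87 to 6.23 CPM) and old 1 (5.54 to 8.12 CPM) did. The means were 3.82 ± 1.16 and 7.47 ± 0.658 CPM (SD, n = 3 each), a log2 fold change of 0.97 ± 0.25, or 1.96-fold higher. Young 1, the young heart with the least Nr4a1, had the most Nr4a3. The spread among young hearts was wide for this gene too, with an SD of log2 CPM of 0.44 against a median of 0.20 in genes of like level. The direction was the same in all settings tried, but the gene was no longer called without young 1 (log2 fold change 1.19), young 2 (0.97), young 3 (0.74), old 2 (0.95) or old 3 (0.91). It was also not called on the authors' FPKM values, where it was 0.45 with a pseudocount of 1 and 0.89 with one of 0.1.

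Nr4a2 (ENSMUSG00000026826; chromosome 2, 57106830 to 57124003, minus strand) was covered by the fewest reads of the 3. It had 35, 47 and 49 reads in young 1, 2 and 3 and 36, 48 and 34 reads in old 1, 2 and 3. These are 2.41, 3.19 and 3.15 CPM and 2.21, 3.4 and 2.52 CPM, and the ages overlapped. The log2 fold change was -0.11 ± 0.28, and it was 0.02 without old 1. The lowest count, 34 reads in old 3, has an exact Poisson 95% interval of 23.5 to 47.5 reads, which covers most of the other libraries. These intervals cover counting error only.

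**Figure D1:**
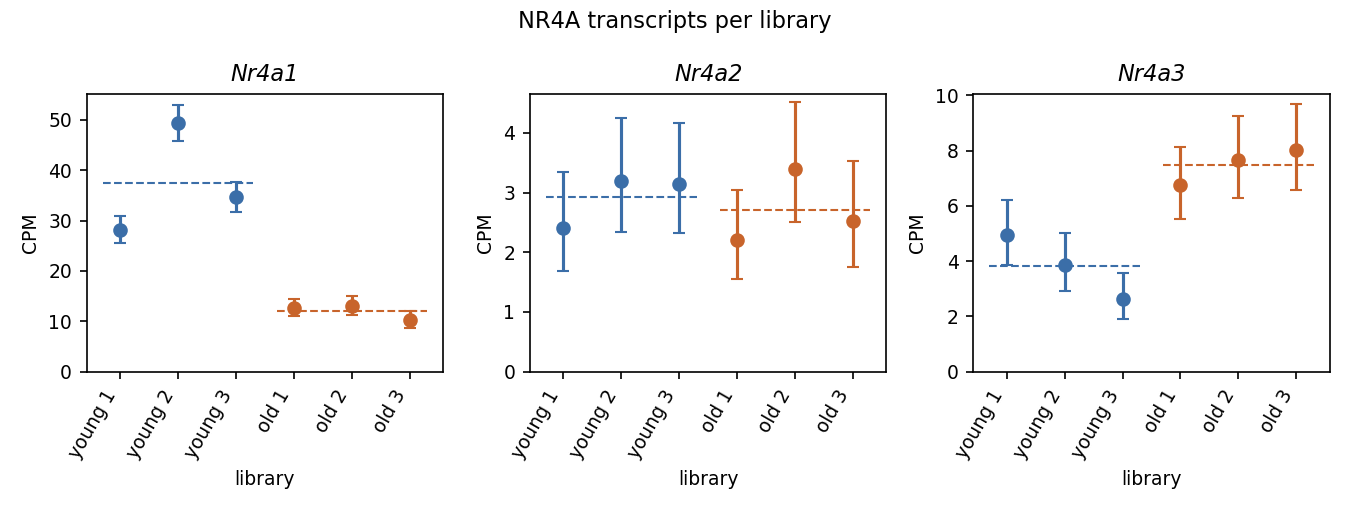
CPM of Nr4a1, Nr4a2 and Nr4a3 in each of the 6 libraries, each panel on its own axis; bars are exact Poisson 95% intervals and dashed lines are age means. Old hearts sit below all young hearts for Nr4a1 (10.2 to 13 against 28.2 to 49.3 CPM), above them for Nr4a3 (6.74 to 8.02 against 2.64 to 4.95 CPM), and among them for Nr4a2.

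To compare the members with each other, reads were divided by the length of each gene's exons in GENCODE M21 (3509, 4059 and 5987 bases for Nr4a1, Nr4a2 and Nr4a3), giving CPM per kilobase of exon (RPKM). In young hearts Nr4a1 reached 10.6 ± 3.09 RPKM, while Nr4a2 (0.718 ± 0.109 RPKM) and Nr4a3 (0.638 ± 0.193 RPKM) did not differ beyond their spread. In old hearts Nr4a1 was at 3.41 ± 0.428 RPKM, Nr4a3 at 1.25 ± 0.11 RPKM and Nr4a2 at 0.668 ± 0.153 RPKM, and no library broke this order. The summed level of the family was 9.45, 15.5 and 11.1 RPKM in young 1, 2 and 3 and 5.28, 5.82 and 4.88 RPKM in old 1, 2 and 3. The family total was thus lower in each old heart than in each young one, and Nr4a1 made up most of it at both ages.

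The make-up of the family shifted with these levels. Shares and ratios follow from the same 3 genes, and a lower Nr4a1 by itself raises the other shares, so they are no separate finding. Nr4a1 was 85%, 90.8% and 89% of the summed RPKM in young 1, 2 and 3 and 68.4%, 63.6% and 59.8% in old 1, 2 and 3. Nr4a3 went from 5.63% ± 2.7 to 23.6% ± 3.36 and Nr4a2 from 6.12% ± 0.983 to 12.5% ± 2.08 of the sum (SD, n = 3 each). The share of Nr4a2 was higher in each old heart than in each young one, while its own level overlapped between the ages. The ratio of Nr4a1 to Nr4a3 was 17.9 ± 7.13 in young and 2.76 ± 0.528 in old hearts in RPKM. In the authors' FPKM values, which list Nr4a1 and Nr4a3, it was 25.4 ± 10.1 and 3.92 ± 0.748. The ages did not overlap on either.

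**Figure D2:**
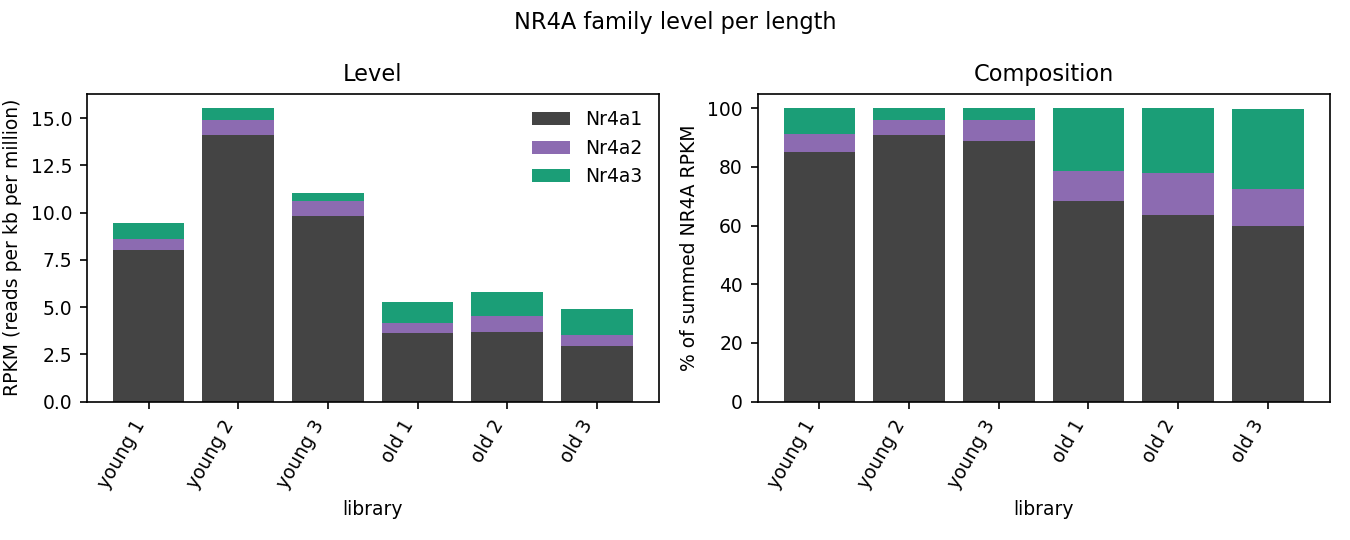
RPKM of the 3 genes stacked for each library (left) and the same as a percentage of their sum (right). The sum is 9.45 to 15.5 RPKM in young and 4.88 to 5.82 RPKM in old hearts, and the part taken by Nr4a3 is 3.98% to 8.75% in young and 21.3% to 27.4% in old hearts.

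The promoter windows of the 3 genes are shown because the pathways known to induce these genes act through short DNA elements there. CREB binds the cAMP response element (CRE), whose full form is TGACGTCA and whose core is TGACG, or CGTCA when read on the opposite strand. RefSeq windows of GRCm38.p6 run from 250 bases before to 50 after the annotated start. Printed below are the bases before the start that lie in no GENCODE exon of the gene, 5′ to 3′ on the gene's strand, with each CRE core in capitals.
Nr4a1, chr15:101266596-101266845, plus strand: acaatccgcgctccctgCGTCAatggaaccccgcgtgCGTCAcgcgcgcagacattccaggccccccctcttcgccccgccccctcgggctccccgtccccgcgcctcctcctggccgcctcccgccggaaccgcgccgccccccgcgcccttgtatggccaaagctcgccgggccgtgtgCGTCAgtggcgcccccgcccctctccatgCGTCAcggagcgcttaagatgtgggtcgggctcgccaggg
Nr4a2, chr2:57124004-57124253, minus strand: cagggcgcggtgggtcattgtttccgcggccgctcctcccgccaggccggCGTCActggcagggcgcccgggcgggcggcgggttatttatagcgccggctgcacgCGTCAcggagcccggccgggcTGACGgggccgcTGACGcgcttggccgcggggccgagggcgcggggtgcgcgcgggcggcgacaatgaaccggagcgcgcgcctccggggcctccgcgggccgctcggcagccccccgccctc
Nr4a3, chr4:48045055-48045152, plus strand: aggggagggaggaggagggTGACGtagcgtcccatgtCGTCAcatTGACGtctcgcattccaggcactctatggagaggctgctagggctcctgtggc

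Each of the 3 windows held 4 CRE cores, counted on both strands, and 1 of those of Nr4a3 lies past the printed stretch. Among all 32851 RefSeq windows of this length 20.8% held at least 1 core and 0.231% held at least 4. Among the 6056 windows with a GC content in the range of the 3 (64.7% to 81.7%), 0.578% held at least 4. The 2 cores of Nr4a1 nearest its start are at -69 to -65 and -40 to -36 relative to it, those of Nr4a2 at -123 to -119 and -111 to -107, and those of Nr4a3 at -205 to -201 and -147 to -143. The RefSeq starts of Nr4a1 and Nr4a3 lie inside the longer gene spans of GENCODE. The core of Nr4a3 at -147 to -143, the core past the printed stretch, lies downstream of the GENCODE start of that gene. The full CRE (1.79% of windows), the NR4A site NBRE, AAAGGTCA (1.51%), the AP-1 site TGANTCA (7.81%), the MEF2 site (3.69%) and the SRF site known as the CArG box (1.63%) had no match in the 3 windows, on either strand. A full CRE also counts as CRE cores. The core was added to the search after the windows had been seen. Thus Nr4a1 and Nr4a3, which differed in opposite directions with age, carry the same number of these cores, and a match of letters is not evidence of binding in these hearts.

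Genes of the pathways that act on NR4A genes were called in both directions. Of 26 tested genes of the cAMP-CREB, MEF2 and SRF pathways 2 were called higher and 4 lower (23.1%, against 15.1% of all tested genes). The median log2 fold change was -0.04, against 0.02 over all tested genes. The list pools activators with genes whose proteins restrain these pathways, such as Hdac5 and Cabin1. Its counts and median therefore do not tell whether inducing signals differed with age. The genes called lower included both kinds of subunit of protein kinase A, which carries the cAMP signal. Prkaca, its main catalytic subunit, stood at 149 ± 8.42 CPM in young and 82.6 ± 7.84 CPM in old hearts (SD, n = 3; log2 fold change -0.85 ± 0.13, edgeR adjusted p = 0.00482). Prkar2a, a regulatory subunit, had a log2 fold change of -0.56 ± 0.14. Mef2c, a muscle transcription factor, had -0.58 ± 0.14, and Elk1, a partner of SRF, had -1.03 ± 0.25. Called higher were Crem (0.76 ± 0.20), a relative of CREB that includes repressor forms, and Crtc2 (0.61 ± 0.18), a CREB coactivator. Creb1 itself was at 27.6 ± 1.07 and 27.8 ± 2.6 CPM (log2 fold change 0.01 ± 0.13, edgeR adjusted p = 0.959). Srf had a log2 fold change of -0.58 ± 0.18 and was not called (edgeR adjusted p = 0.0546).

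The call of Prkaca held with each library left out. Those of Crem, Crtc2, Prkar2a, Mef2c and Elk1 ended when any library but old 1 was left out, with edgeR adjusted p from 0.0545 to 0.184, and without old 1 the pathway list had 7 genes called in each direction. With any other library left out the list had 0 higher and 1 lower. Crtc2 also missed the threshold with RLE factors (edgeR adjusted p = 0.0506), upper-quartile factors (0.0563) and limma-voom (0.0636), and on FPKM values with limma both it (0.0872 and 0.087) and Crem (0.0618 and 0.0586) did so with pseudocounts of 1 and 0.1.

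Other immediate early genes did not follow Nr4a1 as a group. Of 34 tested 9 were called higher and 1 lower (29.4%, against 15.1% of all tested genes). The median log2 fold change was 0.18, against 0.02 over all tested genes. The genes with higher levels were Egr2, Ier3, Maff, Myc, Nfkbiz, Arc, Cyr61, Ctgf and Gadd45g. Myc, a growth transcription factor, stood at 8.38, 4.27 and 5.86 CPM in young 1, 2 and 3 and at 12.3, 19.6 and 19.1 CPM in old 1, 2 and 3 (log2 fold change 1.46 ± 0.27, edgeR adjusted p = 0.0101). Every old heart was above every young heart. Ier3 (0.93 ± 0.16), Maff (0.85 ± 0.15) and Gadd45g (1.09 ± 0.22), a growth arrest gene, showed changes close in size to the 0.97 ± 0.25 of Nr4a3. Egr2, a zinc finger factor, had 1.79 ± 0.40. Cyr61 and Ctgf, which encode secreted matricellular proteins and answer to mechanical load, had 0.86 ± 0.21 and 1.14 ± 0.30. The gene called lower was Zfp36l1 (-0.51 ± 0.13), whose protein destabilises mRNAs.

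The AP-1 genes Fos and Fosb had fold changes in the direction of Nr4a1, with a wide error. Of the other Fos and Jun genes, Fosl1 (log2 fold change -0.40 ± 0.34), Jun (-0.36 ± 0.17) and Jund (-0.47 ± 0.14) had the same direction. Fosl2 (0.04 ± 0.23) was flat and Junb (0.55 ± 0.20) went the other way. None of these genes was called. Fos stood at 0.756, 5.63 and 6.69 CPM in young 1, 2 and 3 and at 2.57, 2.62 and 1.86 CPM in old 1, 2 and 3. The old hearts lay between the young ones, and the log2 fold change of -0.89 ± 0.59 did not pass (edgeR adjusted p = 0.325). Without young 1 it was -1.39 and passed (edgeR adjusted p = 0.0396). Egr1, an early growth response gene, stood at 5.84 to 10.9 CPM in young and at 11 to 21.3 CPM in old hearts (0.76 ± 0.30, edgeR adjusted p = 0.114, and 0.036 with no filter on low counts). The log2 fold change of Nr4a1 was lower than that of each of these 34 genes, and Nr4a3 lay among those called higher. The members were chosen with this contrast known, so these places are a description.

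Young 1 stood apart in these genes. It was the lowest young library for 22 of the 34 immediate early genes (64.7%), against 35.6% of all tested genes, and for 10 of 15 tested CREB-induced genes (66.7%). Dusp1, a phosphatase induced by stress, read 56.4 CPM in young 1 and 151 and 128 CPM in young 2 and 3. Sik1, a kinase induced by cAMP, read 27.3 CPM there and 58.5 and 54.1 CPM in young 2 and 3. The counts of these lists overlap, since Fos, Fosb, Dusp1, Btg2 and Junb are in both and were each lowest in young 1 among young hearts. Nr4a1 shared this pattern, with its lowest young value in young 1, and even that value was above all old hearts. Nr4a2 was also lowest in young 1 among young hearts (2.41 against 3.19 and 3.15 CPM), with overlapping counting intervals. Nr4a3 was highest in young 1 among young hearts (4.95 CPM). Without young 1 the log2 fold change of Nr4a1 was -1.81.

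Calls among the immediate early genes depended on the libraries kept. They ended for Ier3 without young 2, for Maff without young 1 or 2, for Myc without young 3, for Gadd45g without young 2 or 3, and for Cyr61 without young 1, 2 or 3. For Egr2, Arc, Ctgf and Zfp36l1 they ended without young 1, 2 or 3 or old 3, and for Nfkbiz also without old 2 (edgeR adjusted p = 0.0527 to 0.147 over these cases). The number called higher was 3, 1 and 2 without young 1, 2 and 3 and 5 without old 3. The number called lower was 0 without young 2, young 3 or old 3, 3 without old 1 and 2 without old 2. On FPKM values with limma 5 were called higher.

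**Figure D3:**
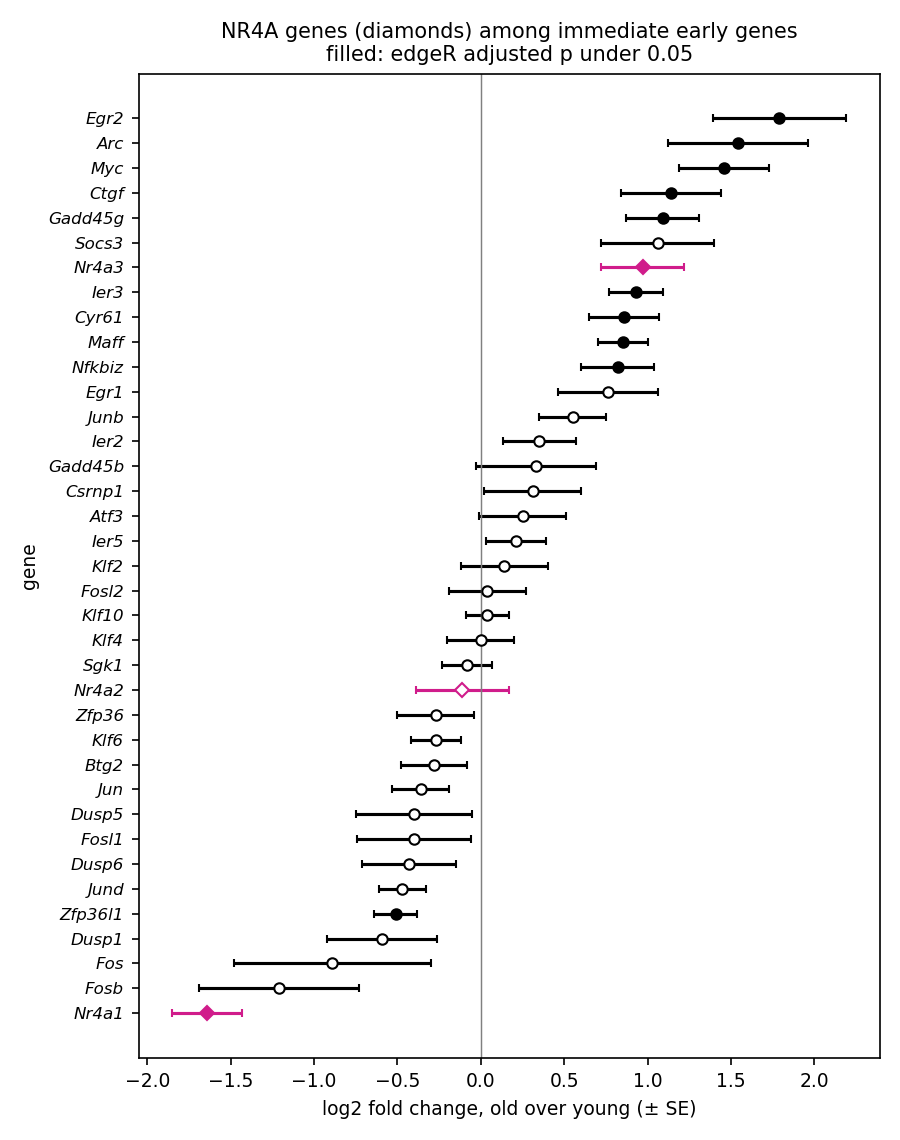
Log2 fold change (old over young, with SE) of the 3 NR4A genes, drawn as diamonds, and 34 other immediate early genes; filled symbols have an edgeR adjusted p under 0.05. Nr4a1 (-1.64) is at the bottom, Nr4a2 (-0.11) in the middle and Nr4a3 (0.97) among the genes called higher.

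Genes induced by cAMP and CREB, taken without the NR4A members, had a median log2 fold change of -0.34 over 15 tested, with 1 called higher and 1 lower (13.3%, near the 15.1% of all genes). The lower one was Ppargc1a, a coactivator of mitochondrial genes, at 73.3, 59.2 and 66.2 CPM in young 1, 2 and 3 and 36, 28.9 and 32.3 CPM in old 1, 2 and 3 (log2 fold change -1.03 ± 0.14, edgeR adjusted p = 0.00315). No old heart reached the young range. The higher one was Crem, described above. Per1, a clock gene with a CRE, was at 102 ± 13 and 97.7 ± 8.92 CPM (log2 fold change -0.06 ± 0.14, edgeR adjusted p = 0.788). Leaving out 1 library gave 0 higher, except 2 without old 1, and it gave 4 lower without old 1 and 2 without young 1.

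The partners of NR4A proteins showed no called change. Of 14 tested retinoid X receptors, coactivators and corepressors 0 were called by edgeR, DESeq2 or limma-voom, beside the 15.1% of all tested genes called by edgeR. An unadjusted edgeR p under 0.05 was found for 3 of them, 1 higher and 2 lower. Rxra and Rxrg, whose proteins pair with NUR77 and NURR1, stood at 66.2 ± 4.26 and 50.5 ± 8.94 CPM and at 48.7 ± 2.92 and 35.5 ± 7.63 CPM in young and old hearts (SD, n = 3). Their log2 fold changes were -0.39 ± 0.15 and -0.45 ± 0.17 (edgeR adjusted p = 0.106 and 0.0939). Both passed without old 2 (-0.54 and -0.61, edgeR adjusted p = 0.0399 and 0.0449). Rxrb had 0.18 ± 0.14 (edgeR adjusted p = 0.39, and 0.0417 without old 1), and without old 1 the list had 3 genes called higher. Ncoa3, a coactivator, had 0.50 ± 0.19 (edgeR adjusted p = 0.106, and 0.00212 without old 1).

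Muscle metabolism genes that respond to NR4A receptors in other studies were called in 7 of 17 cases, 5 lower and 2 higher. This is 41.2%, against 15.1% of all tested genes, with a median of -0.29, against 0.02 over all tested genes. Lower were Slc2a4, the insulin-responsive glucose transporter, from 292 ± 25.8 to 197 ± 17.2 CPM (SD, n = 3; log2 fold change -0.57 ± 0.13, edgeR adjusted p = 0.024), and Pfkm, muscle phosphofructokinase, from 679 ± 35.1 to 440 ± 50.8 CPM (-0.62 ± 0.14). Eno3, muscle enolase, had -0.66 ± 0.16, Pdk4, a kinase that shuts pyruvate dehydrogenase, had -0.74 ± 0.21, and Lpin1, a phosphatidate phosphatase and coactivator, had -0.45 ± 0.13. Higher were Prkag3 (1.01 ± 0.22), a regulatory subunit of AMP kinase, and Phka1 (1.43 ± 0.34), a subunit of phosphorylase kinase. The other 10 were not called, among them Cd36, the fatty acid transporter (-0.14 ± 0.16, edgeR adjusted p = 0.568). This list is a set of textbook responders, and whether any of these genes depends on NR4A proteins in these hearts was not tested.

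All 7 of these calls ended when libraries were left out: without young 1, 2 or 3 for all 7, and also without old 3 for Slc2a4, Pfkm, Eno3 and Lpin1, and without old 2 or 3 for Pdk4 and Phka1 (edgeR adjusted p = 0.0545 to 0.178). The list had 0 called without young 1, 2 or 3. Without old 1 it had 8 lower, without old 3 it had 0 lower and 1 higher, and without old 2 it had 1 higher. On FPKM values with limma 3 were lower and 1 higher, and Pdk4 (adjusted p = 0.0538 and 0.0524), Lpin1 (0.0543 and 0.0552) and Phka1 (0.0616 and 0.0591) missed the threshold with pseudocounts of 1 and 0.1.

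Vascular and inflammatory genes that respond to NR4A receptors in other studies were more often called higher than lower. Of 14 tested 5 were called higher and 1 lower (42.9%, against 15.1% of all tested genes), with a median of 0.41. This list, like the others, was chosen with earlier results of these data known, so its share is a description. Whether any of these genes depends on NR4A proteins in these hearts was not tested. Vcam1, an adhesion molecule of activated endothelium, stood at 11.7, 11.6 and 12 CPM in young 1, 2 and 3 and at 29.4, 20.1 and 23.2 CPM in old 1, 2 and 3 (log2 fold change 1.04 ± 0.17, edgeR adjusted p = 0.00582). The young hearts were nearly alike and all old hearts were above them. Icam1, another adhesion molecule, had 0.72 ± 0.17, Birc3, an inhibitor of apoptosis, 0.60 ± 0.15, Mmp9, a gelatinase, 2.18 ± 0.51, and the chemokine gene Ccl2 2.19 ± 0.49. Lower was Cdkn1b, a cell cycle inhibitor (-0.61 ± 0.13). The call of Vcam1 held with each library left out. The others ended without young 1, 2 or 3, and also without old 3 for Birc3, Mmp9 and Cdkn1b and without old 2 or 3 for Icam1 (edgeR adjusted p = 0.0525 to 0.132). The list had 1 higher and 0 lower without young 1, 2 or 3, 2 higher and 0 lower without old 3, and 2 lower without old 1.

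Some markers of other cell types in the heart differed with age as well, beside the 15.1% of all tested genes that were called. Among 10 endothelial markers 0 were called higher (0 at an unadjusted edgeR p under 0.05) and 3 lower (30%). The sum of the endothelial markers was 2011 to 2155 CPM in young and 1485 to 1986 CPM in old hearts. Cdh5, the endothelial cadherin, had a log2 fold change of -1.0 ± 0.12 (edgeR adjusted p = 0.00235), while Eng, another endothelial gene, had 0.29 ± 0.21 (edgeR adjusted p = 0.366, and 0.0127 without old 1). The other two called lower, Pecam1 (-0.59 ± 0.16) and Tie1 (-0.56 ± 0.16), lost their call when young 1, 2 or 3 or old 3 was left out, and Pecam1 also when old 2 was, with edgeR adjusted p from 0.0926 to 0.181. Among 11 macrophage and monocyte markers 6 were called higher and 0 lower (54.5%). Their sum was 194 to 232 CPM in young and 326 to 437 CPM in old hearts. C1qa, which macrophages express, had 1.22 ± 0.13 (edgeR adjusted p = 0.00142). The calls of C1qa, Ly6c2 and Fcgr1 held with each library left out. Those of C1qb (without young 1), Ccr2 (without young 1, 2 or 3) and Itgam (without young 1, 2 or 3 or without old 3) did not.

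Neutrophil and mast cell markers were called in 4 of 6 tested (66.7%, against 15.1% of all tested genes). The sum over the list was 11.3 to 14.5 CPM in young and 17.5 to 27.4 CPM in old hearts. S100a8 (log2 fold change 3.06 ± 0.54) and Csf3r (1.75 ± 0.24), both expressed by neutrophils, were higher, as was S100a9 (2.03 ± 0.57), and the mast cell receptor gene Kit was lower (-1.50 ± 0.25). The calls of S100a8, Csf3r and Kit held with each library left out, and that of S100a9 ended without young 1, 2 or 3 and without old 3. The higher levels of Mmp9 and Ccl2 in the inflammatory list stand beside these and the macrophage markers, whose part in them was not tested.

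Of 8 mural markers 2 were called lower (25%), the potassium channel genes Abcc9 (-0.66 ± 0.14) and Kcnj8 (-0.56 ± 0.12). The mural sum was 1136 to 1372 CPM in young and 763 to 1185 CPM in old hearts. Of 8 fibroblast markers 1 was called lower, the collagen gene Col1a1 (-1.17 ± 0.23). This is 12.5%, near the 15.1% of all tested genes. The fibroblast sums, 2250 to 3012 and 1689 to 3116 CPM, overlapped. The calls of Abcc9 and Kcnj8 ended without young 1, 2 or 3 and without old 3, and that of Col1a1 without young 2, young 3 or old 3.

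Patrolling monocytes, a cell type that needs NUR77, could not be followed well. Of their 8 markers 6 were tested and 0 were called by edgeR, DESeq2 or limma-voom (1 at an unadjusted edgeR p under 0.05). Over all tested genes edgeR called 15.1%. Spn stood at 0.687, 0.746 and 0.708 CPM in young 1, 2 and 3 and at 2.14, 1.21 and 0.965 CPM in old 1, 2 and 3 (log2 fold change 1.02 ± 0.42, edgeR adjusted p = 0.129). Cd36, also counted here, is the fatty acid transporter gene of the muscle list and far more abundant (mean 1611 CPM). Treml4 and Cd300e lay at 0.245 CPM or less in all libraries, and Cx3cr1 at 1.63 to 5.33 CPM. The part of these cell types in the NR4A results was not tested.

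The members were chosen with the contrast between ages known, so their places among nuclear receptors are a description. Among all nuclear receptor genes, Nr4a1 had the largest drop in order. Of 49 nuclear receptor genes in the table, ranked by mean RPKM, it was number 8 in young and number 18 in old hearts. Its neighbours did not differ from it beyond their spread: Rxra (12.1 ± 0.779 RPKM) and Nr1d2 (10.1 ± 0.581 RPKM) in young, and Rara (3.75 ± 0.341 RPKM) and Ppard (3.14 ± 0.76 RPKM) in old hearts. Nr4a2 was number 30 at both ages, and Nr4a3 went from number 31 to number 28, next to Ppara (1.41 ± 0.35 RPKM) and Nr2f1 (0.921 ± 0.387 RPKM), from which it did not differ beyond the spread. Of the 46 others 35 were tested, and 2 were called higher and 2 lower (11.4%, against 15.1% of all tested genes). Higher were Nr1d2, a clock repressor (log2 fold change 0.99 ± 0.16, edgeR adjusted p = 0.00546), and Nr1h3, the sterol receptor LXR alpha (0.84 ± 0.18). Lower were Rora, another clock receptor (-0.54 ± 0.12), and Nr2f6 (-0.62 ± 0.17). The call of Nr1d2 held with each library left out. The others ended without young 1, 2 or 3, and those of Rora and Nr2f6 also without old 3 (edgeR adjusted p = 0.0544 to 0.162). Esrra, which regulates mitochondrial genes, had the highest level at both ages (35.2 ± 3.17 and 31.8 ± 6.61 RPKM).

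**Figure D4:**
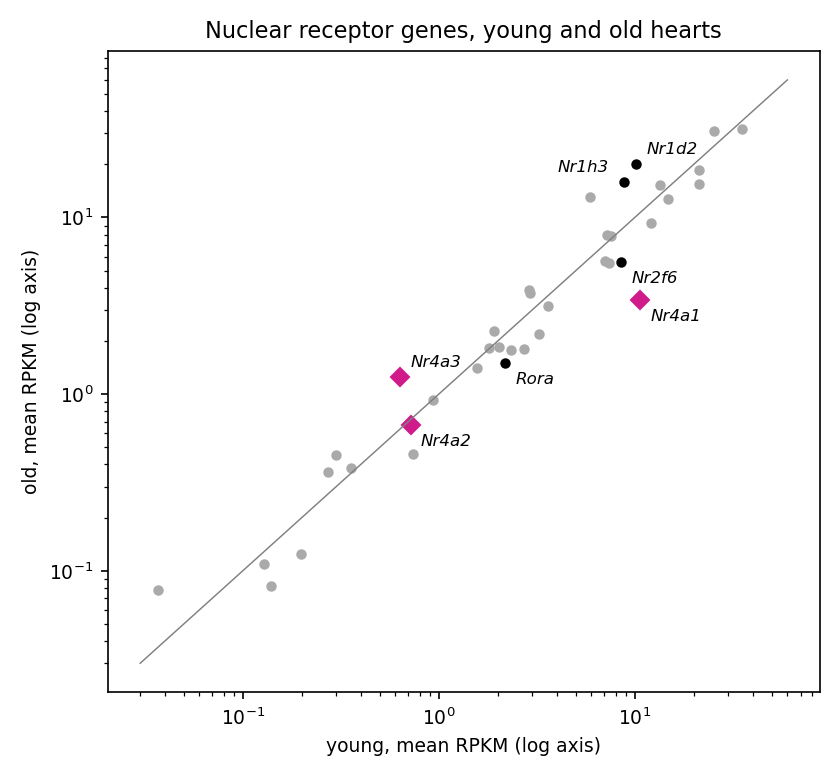
Mean RPKM of the tested nuclear receptor genes in young (x) and old hearts (y), both on log axes, with the line of equal levels; diamonds are the NR4A genes, and black points are others with an edgeR adjusted p under 0.05. Nr4a1 (10.6 and 3.41 RPKM) lies below the line and Nr4a3 (0.638 and 1.25 RPKM) above it.

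The genes whose levels across the 6 libraries were most like each member were sought among 12245 named genes with a mean of at least 1 CPM. Likeness was the root mean square difference of log2 CPM after each gene was centred on its own mean. Mest, an imprinted gene, was nearest to Nr4a1 (difference 0.162), followed by Cbl, a ubiquitin ligase that targets receptor kinases (0.173), and Vash1, an angiogenesis inhibitor (0.180). Arntl, the core clock gene that encodes BMAL1, was nearest to Nr4a2 (0.052), followed by Lin37 (0.054) and Pxdc1 (0.058). The profile of Nr4a2 was nearly flat, with centred log2 values from -0.32 to 0.28. These small differences lie within the counting error of its 34 to 49 reads per library, so the order of its nearest genes is not settled. Zswim7 (0.141), the DNA damage kinase gene Atr (0.166) and Mocos (0.167), which matures molybdenum enzymes, were nearest to Nr4a3. With a prior count of 0.5 in place of 2, Per2 (0.174) replaced Atr among the 3 genes nearest to Nr4a3, and Vash1 (0.181) came before Cbl (0.193) for Nr4a1. Between the members themselves the difference was 1.36 for Nr4a1 and Nr4a3, 0.78 for Nr4a1 and Nr4a2 and 0.67 for Nr4a2 and Nr4a3. After each age was centred apart these were 0.42, 0.23 and 0.39.

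**Figure D5:**
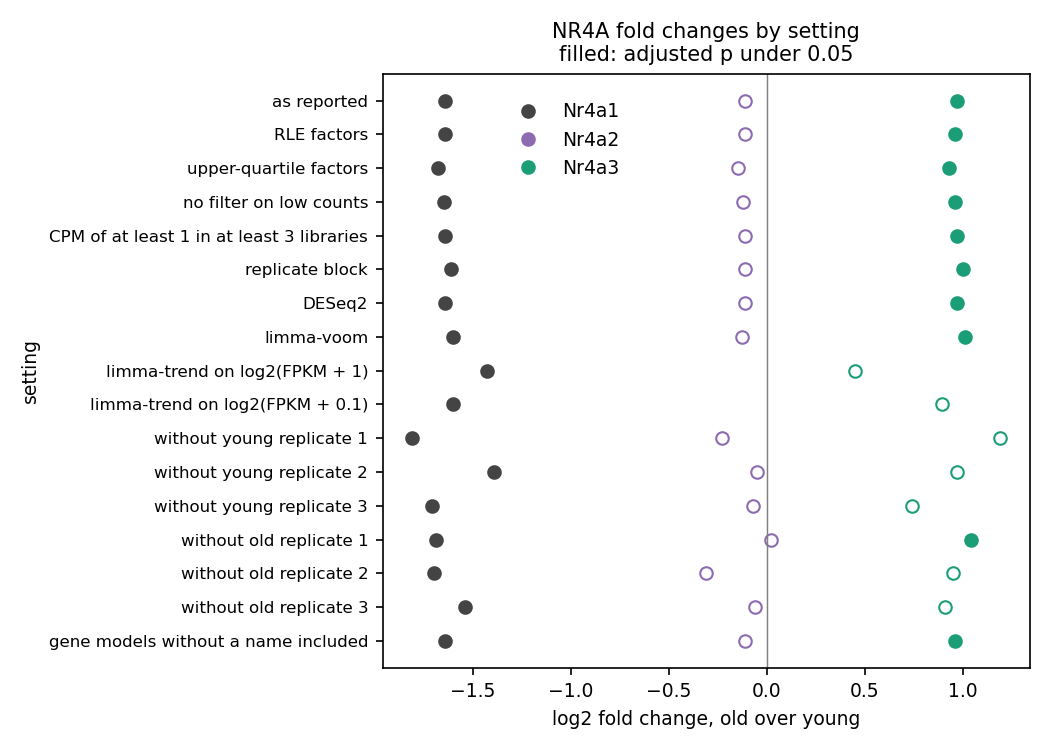
Log2 fold change (old over young) of the 3 genes under each processing setting; filled symbols have an adjusted p under 0.05. Nr4a1 stays between -1.81 and -1.39 and Nr4a3 between 0.45 and 1.19, while Nr4a2 lies between -0.31 and 0.02.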

How the data were processed

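Hearts of 3 young and 3 old mice were grouped by their titles. In the labels the extraction text speaks of NRVMs, which is not the heart tissue the samples are labelled as. The authors used HISAT2, featureCounts (Subread) and the build GRCm38.p6, per the submitters' processing notes. The sources used here do not give versions, the annotation release, or how strand and reads mapping to several places were handled. The deposited counts are whole reads per gene, and 571 gene models without a name (0.295% to 0.368% of counts) were left out. The deposited FPKM values, scaled by the authors to gene length and depth, list 13170 genes, each above 1 FPKM in some library; Nr4a2 is not listed.

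Old was compared with young in R 4.3.3 with edgeR 4.0.16 (filterByExpr, TMM factors, quasi-likelihood F test, Benjamini-Hochberg adjustment). CPM and RPKM use TMM library sizes, and RPKM the merged exon length of GENCODE M21 (GRCm38). For each SE the size of the log2 fold change was divided by the root of its F value. Log2 profiles use a prior count of 2. Members and lists were chosen with earlier results of these data known. Genes named were the members, the 3 list genes with the smallest p, for marker lists the most abundant and the smallest p, the 3 nearest profiles per member, and Rxra, Rxrb, Rxrg, Creb1, Fos and Egr1. Other genes given with values were chosen after their values were seen. Some genes that the rule names are not reported here. Alternatives were other factors and filters, DESeq2 1.42.0, limma 3.58.1 (voom, and trend on FPKM), a block for the replicate number, and leaving out each library; gene models without a name were included as an alternative chosen after seeing the data. The edgeR steps were tested on simulated data. No gene overlaps the 3 loci in GENCODE M21.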

Additional observations from a re-analysis of the deposited data

How the results depend on the processing

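Nr4a1 was lower and called in all 16 alternatives, and Nr4a3 higher in all of them. Nr4a3 was not called on FPKM values (0.45 with a pseudocount of 1, 0.89 with 0.1) nor with most libraries left out (log2 fold change 0.74 to 1.19). Nr4a2 ranged from -0.31 to 0.02 with 1 library left out, and its sign turned without old 1. With 1 library left out the genes called over the whole table ranged from 350 to 2961 higher and from 184 to 2609 lower. The lists then ranged as follows: inducing pathways 0 to 7 higher and 1 to 7 lower, CREB-induced genes 0 to 2 higher and 1 to 4 lower, immediate early genes 1 to 11 higher and 0 to 3 lower, muscle metabolism 0 to 3 higher and 0 to 8 lower, vascular and inflammatory genes 1 to 5 higher and 0 to 2 lower. The cause of these shifts was not tested.

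Replicate numbers showed no sign of pairing the samples (correlations of same-numbered deviations -0.09, -0.07 and 0.03). With 3 libraries per age these values do not settle it. With the replicate block Nr4a1, Nr4a2 and Nr4a3 had log2 fold changes of -1.61, -0.11 and 1.0 and the same calls, and the lists had 0 inducing-pathway genes higher, 0 CREB-induced higher, 0 immediate early lower and 1 muscle metabolism gene lower. On FPKM values, with either pseudocount, these were 0 inducing-pathway and 0 CREB-induced genes higher, 5 immediate early genes higher, and 1 muscle metabolism gene higher and 3 lower. Inducing-pathway genes called higher were 1 with RLE factors, upper-quartile factors and limma-voom. Immediate early genes called lower were 2 with upper-quartile factors, no filter and DESeq2, and CREB-induced genes called lower were 2 with no filter. Counted in reads not divided by length, Nr4a1 made up 84.1% of the family in young and 54% in old hearts, in place of 88.2% and 63.9%; with 1 library left out the shares were 87% to 89.9% and 61.7% to 66%. Of 65 called list and profile genes other than the members, 16 kept their call with each library left out and 49 lost it at least once (adjusted p up to 0.184). Genes not called whose sign turned in some setting were Creb1 (-0.03 with upper-quartile factors, -0.01, -0.02 and -0.07 without young 1, young 3 and old 3), and, with 1 library left out, Arntl (-0.22 to 0.12), Lin37 (-0.22 to 0.09) and Fabp4 (-0.13 to 0.05). Depth limits Nr4a2 most, with 34 to 49 reads per library.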

Other observations

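Clock genes, several of which respond to CREB as NR4A genes do, were called in 5 of 18 cases, 3 higher and 2 lower. This is 27.8%, against 15.1% of all tested genes. Per2, a repressor of the clock, stood at 34.4, 24.6 and 21.2 CPM in young 1, 2 and 3 and at 42, 66.8 and 58.3 CPM in old 1, 2 and 3 (log2 fold change 1.06 ± 0.22, edgeR adjusted p = 0.0142). The ages did not overlap. Nr1d2 and Bhlhe40 (0.75 ± 0.22) were the others called higher, and Hlf (-0.84 ± 0.21), an output factor, and the repressor gene Cry1 (-0.53 ± 0.15) were lower. Arntl, whose profile was nearest to Nr4a2 in an order that counting error leaves unsettled, was at 27.7 ± 3.91 and 27.2 ± 6.39 CPM. The calls of Per2 (without young 2, young 3 or old 3), Hlf (without young 1, young 3, old 2 or old 3), Bhlhe40 (without young 1, 2 or 3 or old 3) and Cry1 (without young 1, 2 or 3 or old 2 or 3) ended with 1 library left out (edgeR adjusted p = 0.0552 to 0.175).

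Neuronal and endocrine genes that NR4A receptors are known to drive elsewhere were detected in part. Of 11 such genes 5 could be tested and 1 was called (20%, against 15.1% of all tested genes). Slc6a3 and Cyp11b1 had no read in any library, and Th, Cyp21a1 and Hsd3b1 had a mean below 0.1 CPM. Aldh1a1, an enzyme of retinoic acid synthesis, had the highest mean level (34 CPM). Ddc, which makes dopamine and serotonin, was lower: 6.87, 5.02 and 4.51 CPM in young 1, 2 and 3 and 1.29, 1.13 and 0.297 CPM in old 1, 2 and 3 (log2 fold change -2.56 ± 0.42, edgeR adjusted p = 0.00635). Every old heart was below every young heart.

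Within an age, where the contrast between ages plays no part, genes close to Nr4a1 were Tgif1 (root mean square difference 0.069) and Zbtb25 (0.074). Those nearest to Nr4a3 were Arl4d (0.057), Eva1c (0.071) and F2rl3 (0.077), the thrombin receptor PAR4. These lay among the nearest of 12245 genes compared, and no test was made. Genes whose promoter window holds the NR4A site AAAGGTCA were called in 17.1% of 123 cases (14 higher, 7 lower, median log2 fold change 0.03). Genes without it were called in 15.1% of 10094 (862 higher, 666 lower, median 0.02).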
